A study of Homo sapiens with 28 samples.

Results

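The genes described here are 29 factors that cleave and polyadenylate the nascent RNA or end transcription by RNA polymerase II. They were taken by name from their known roles, and all 29 were measured, out of 18417 genes on the arrays. Each is read from the probeset that carries its symbol alone, and SSU72, the only one with a further such probeset, from the one with the highest mean. The list does not hold any of the targets of the knockdowns except CPSF6, whose own knockdown array is set apart below.

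The 3′ end of a messenger RNA is made by a large complex. The cleavage and polyadenylation specificity factor (CPSF) binds the AAUAAA signal and cuts the RNA, the cleavage stimulation factor (CstF) binds the downstream GU-rich element, and cleavage factors I and II help to choose and to process the site. A poly(A) polymerase then adds the tail, and the downstream fragment is degraded by the exonuclease XRN2 while the polymerase is slowed and released. The PAF1 complex travels with the polymerase and links elongation to these steps. The amount of single subunits is known to shift the choice between proximal and distal poly(A) sites.

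HEK293 cells, a line derived from human embryonic kidney, received lentiviral vectors in which the U6 promoter drives a short hairpin RNA (shRNA), and stayed under puromycin for 6 days. The first series of 14 arrays held 3 hairpins each against CLP1, a subunit of cleavage factor II, HNRNPL, a splicing regulator, and the RNA helicases DDX5 and DDX17, with 1 array of a hairpin against CPSF6 and 1 of the lacZ control. The second series of 14 arrays held 3 hairpins each against PABPC1, the cytoplasmic poly(A)-binding protein, PARP1, a poly(ADP-ribose) polymerase, PRKDC, the catalytic subunit of DNA-dependent protein kinase, and SUPT16H, part of the FACT complex that handles histones during transcription, with 2 arrays of the lacZ control. The lacZ cells carry a hairpin against a bacterial gene that they lack, in the same vector and under the same drug, and the hairpins of each target are those that the study found to work best. Levels are log2 probeset intensities of Human Gene ST1.0 arrays and are set only against levels of the same probeset in the same series, since the series were normalized apart.

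Median intensities ran between 61.5 and 74 over the arrays of the first series and between 54.5 and 58.3 over those of the second. The target was lower in all 3 of its arrays than in lacZ in each of the 8 knockdowns, with log2 differences of -0.57 to -2.26, and was called in 5 of 8 (limma, adjusted p under 0.05). Of the genes known to be high in HEK293 cells, NEFL, VIM, CDH2 and INA lay at or above the 90.7th percentile of all genes, but NEFM (37.2) and PAX2 (49.4) did not, and the markers of blood, fibroblast and liver lay between 1.6 and 34.5. The epithelial keratins KRT5 (26.4) and KRT14 (41.1) and the thymic AIRE (51.0) were also on the list of markers of other cells, and AIRE lay above NEFM and PAX2. The lacZ array of the first series and lacZ replicate 2 of the second are one array: their difference over all probesets had an SD of 0.07, against 0.28 between lacZ replicates 2 and 3, and it was used once in each series. Some arrays stood apart from those of the same target, namely DDX5 hairpin 3 (SD of the difference 0.77 and 0.57), PRKDC hairpin 3 (0.53 and 0.53) and HNRNPL hairpin 3 (0.44 and 0.44), where all other such pairs had 0.20 to 0.37. The 3 arrays of a target carry different hairpins, while nothing in the labels tells if the cultures behind the lacZ arrays were separate. The p-values therefore reflect the spread among these arrays and no more, and some of it may be technical.

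The first question was whether the factors differed from lacZ after knockdown of any of the 8 targets. In the second series 12 of the 29 factors were lower in at least 1 knockdown and none was higher, with 21 calls in all. The scaffold protein PCF11 was lower in all 4 knockdowns of that series, the ubiquitin ligase RBBP6 in 3, the polymerase-tail binding protein SCAF4 in 3, the CstF subunit CSTF3 in 2 and the PAF1 complex subunit CTR9 in 2. In the first series no factor was called. The remaining 17 factors passed the test in no knockdown.

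After PRKDC knockdown 12 of 29 factors (41.4%) were lower, where 16.1% of all genes were called lower and 35.7% were called in either direction, and 0 of 29 were higher, where 19.6% of all genes were. At an unadjusted p under 0.05 there were 13 factors, all lower, where 49.3% of all genes were in either direction. SUPT16H knockdown had 4 of 29 (13.8%) lower, against 5.76% of all genes called lower and 9.53% in either direction. PABPC1 knockdown had 3 of 29 (10.3%) lower, against 4.02% of all genes lower and 5.76% in either direction, and PARP1 knockdown had 2 of 29 (6.9%) lower, against 2.98% lower and 5.44% in either direction. None of the 29 was called higher in these 3 comparisons, where 3.77%, 1.73% and 2.46% of all genes were, and each had 7 factors at an unadjusted p under 0.05, all lower, where 29.5%, 25.1% and 19.8% of all genes were in either direction. Over both directions, the shares at that looser threshold were close to those of all genes. The shares after PABPC1 and PARP1 knockdown rest on 3 and 2 genes and lie within a few points of those of all genes. The 4 comparisons share their lacZ arrays, so the same factors recurring in them is no independent repeat. The arrays read RNA of whole cultures, in which fewer cells of a kind and less RNA per cell cannot be told apart.

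**Figure D1:**
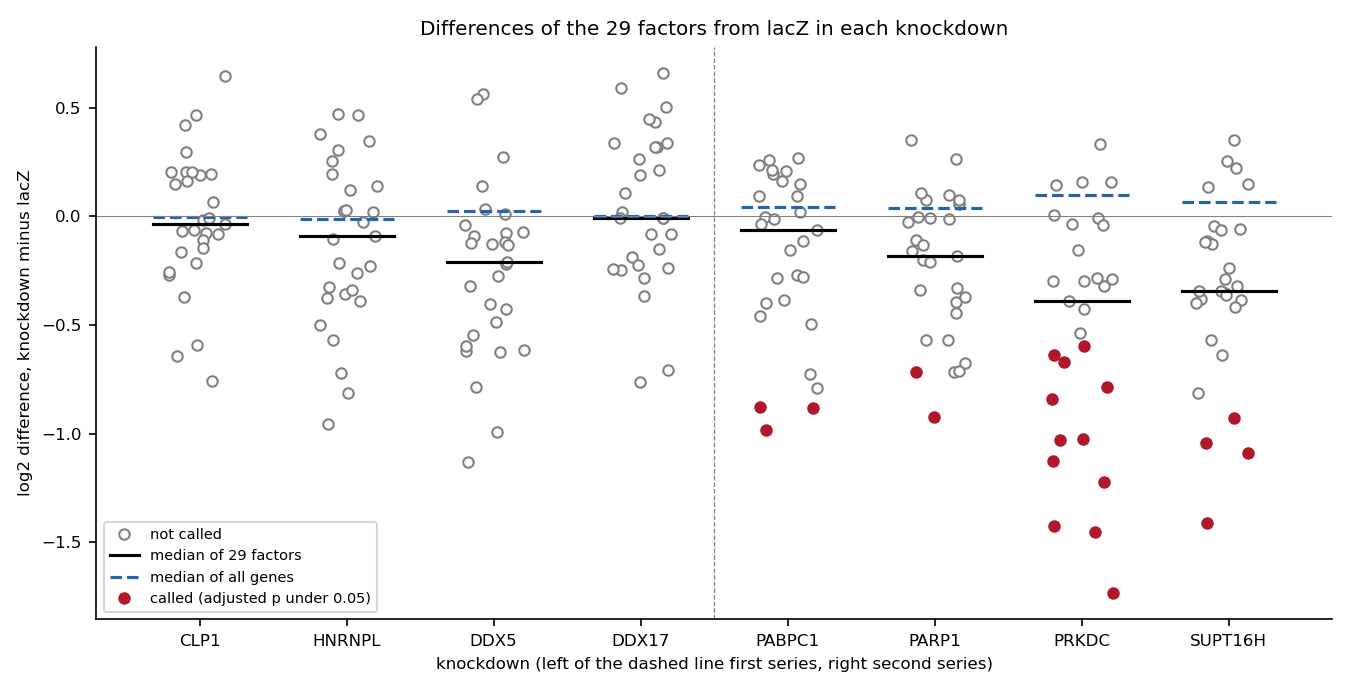
Difference of each of the 29 factors from lacZ (log2, vertical axis) in the 8 knockdowns (horizontal axis); filled points were called at an adjusted p under 0.05 by limma, the solid line is the median of the 29 factors and the dashed line that of all genes. The filled points, 21 in all, lie below 0 and in the second series only, and the median of the factors is lowest after PRKDC knockdown at -0.39.

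The median difference of the 29 factors from lacZ was -0.39 after PRKDC knockdown, where the median of all genes was 0.10, and -0.34 after SUPT16H knockdown, where it was 0.07. It was -0.18 after PARP1 and -0.06 after PABPC1 knockdown, with all genes at 0.04 in both. For the first series it was -0.21 after DDX5 knockdown (all genes 0.02), -0.09 after HNRNPL, -0.035 after CLP1 and -0.0072 after DDX17 knockdown. These medians describe the factors and were given no test. By mean level the 29 factors lay between percentiles 63.1 (CSTF2) and 98.4 (NUDT21) of all genes. The medians and shares of all genes were not matched for level.

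Calls against lacZ leaned on single control arrays. In the second series the calls over all genes fell along with those of the factors when either lacZ array was left out. Without lacZ replicate 2, 5 of the 21 calls were made, namely CSTF3, PCF11, RBBP6 and SCAF4 after PRKDC knockdown and PCF11 after SUPT16H knockdown, and without lacZ replicate 3, 13 were made. With the 3 arrays that stood apart left out, a choice made after the data were seen, the count was 44. This was 37.9% of the factor values, where 30.0% of all genes were called, against 18.1% and 14.1% with all arrays. Of the 44, 1 was higher, CPSF4 after PRKDC knockdown, while 46.8% of all genes were then called in that comparison.

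**Figure D2:**
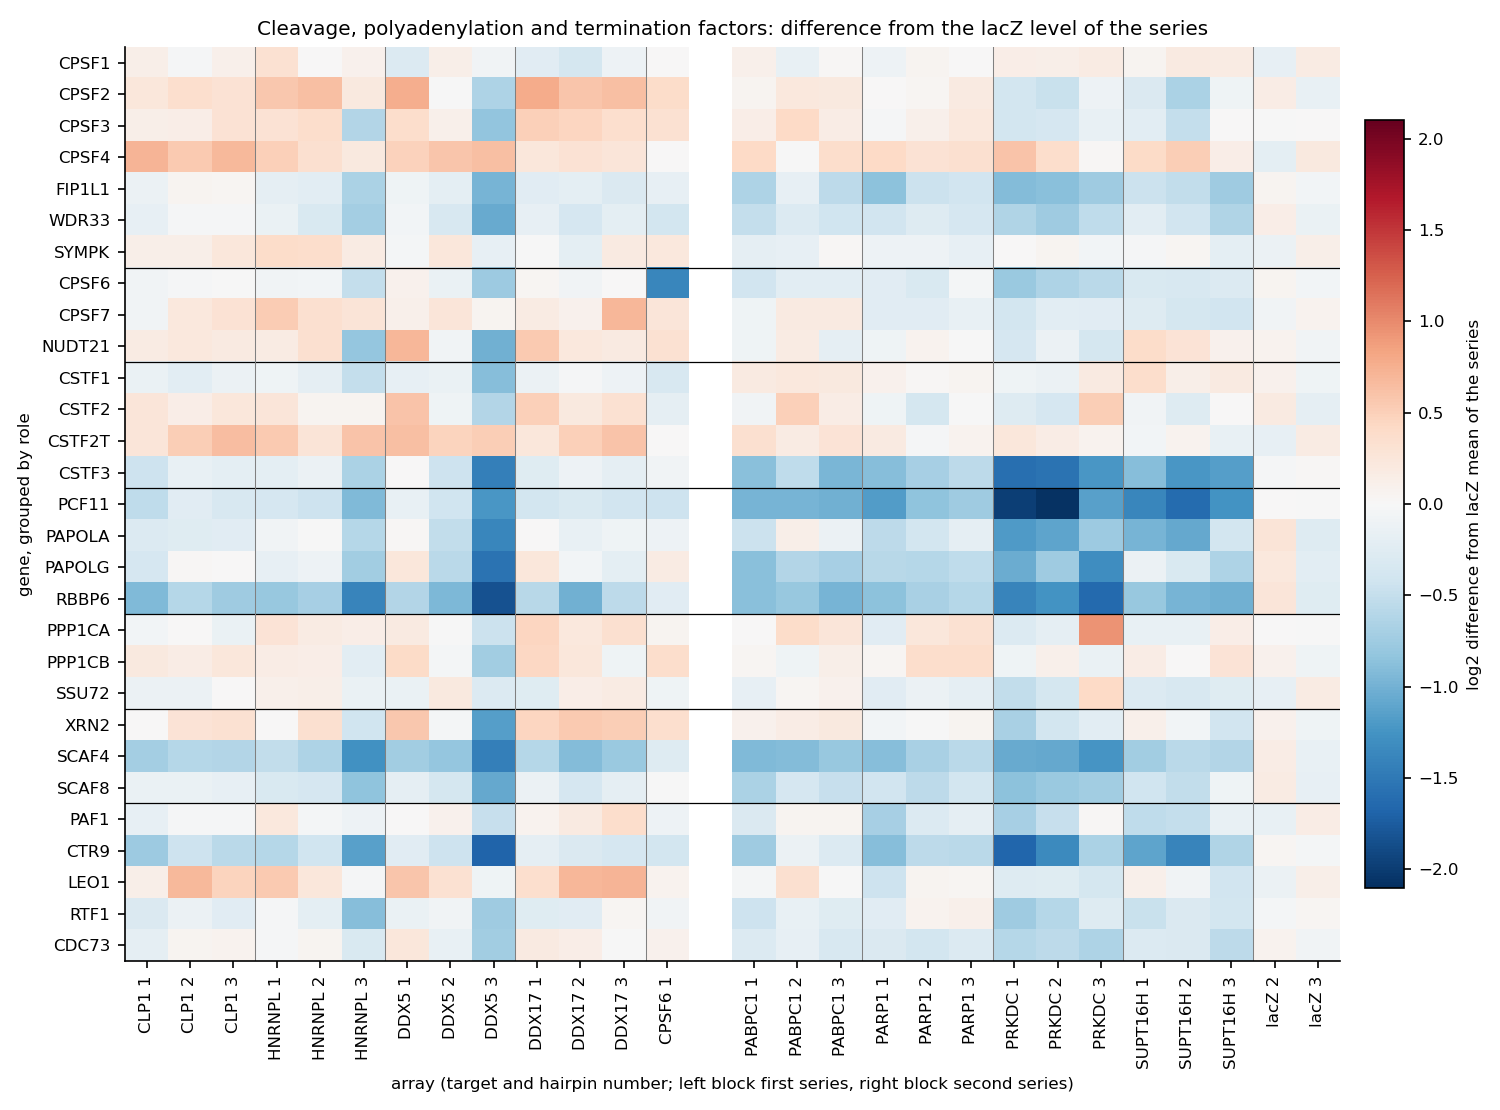
Difference of each factor (rows, grouped by role) from the mean lacZ level of the series (log2, colour) in each array (columns, target and hairpin number), with the first series on the left and the second on the right. PCF11, RBBP6, SCAF4, CTR9 and WDR33 are below lacZ in all 24 arrays of the 8 knockdowns, and DDX5 hairpin 3 is low over most rows.

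PCF11 is the scaffold of cleavage factor II, which holds CLP1, and binds the tail of the polymerase. Its level was 6.91, 6.81 and 7.75 in the PRKDC arrays, 7.53, 7.28 and 7.64 in the SUPT16H arrays, 7.92, 7.91 and 7.89 in the PABPC1 arrays and 7.72, 8.05 and 8.14 in the PARP1 arrays, against 8.89 and 8.89 in the lacZ arrays. No knockdown array reached the lacZ arrays, and the lowest were 2 of the 3 PRKDC arrays. The difference from lacZ was -1.73 ± 0.26 after PRKDC knockdown (log2, SE; adjusted p = 0.000135), -1.41 ± 0.26 after SUPT16H (0.00156), -0.98 ± 0.26 after PABPC1 (0.0254) and -0.92 ± 0.26 after PARP1 knockdown (0.0348), all adjusted p by limma over 18417 genes. Among the arrays of the first series PCF11 was 8.67 to 8.95 in the CLP1 arrays, 8.27 to 8.85 in the HNRNPL arrays, 7.97 to 9.05 in the DDX5 arrays and 8.80 to 8.89 in the DDX17 arrays, against 9.20 in the lacZ array. All 12 lay below lacZ, and none of the 4 differences, -0.36 to -0.60, was called.

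**Figure D3:**
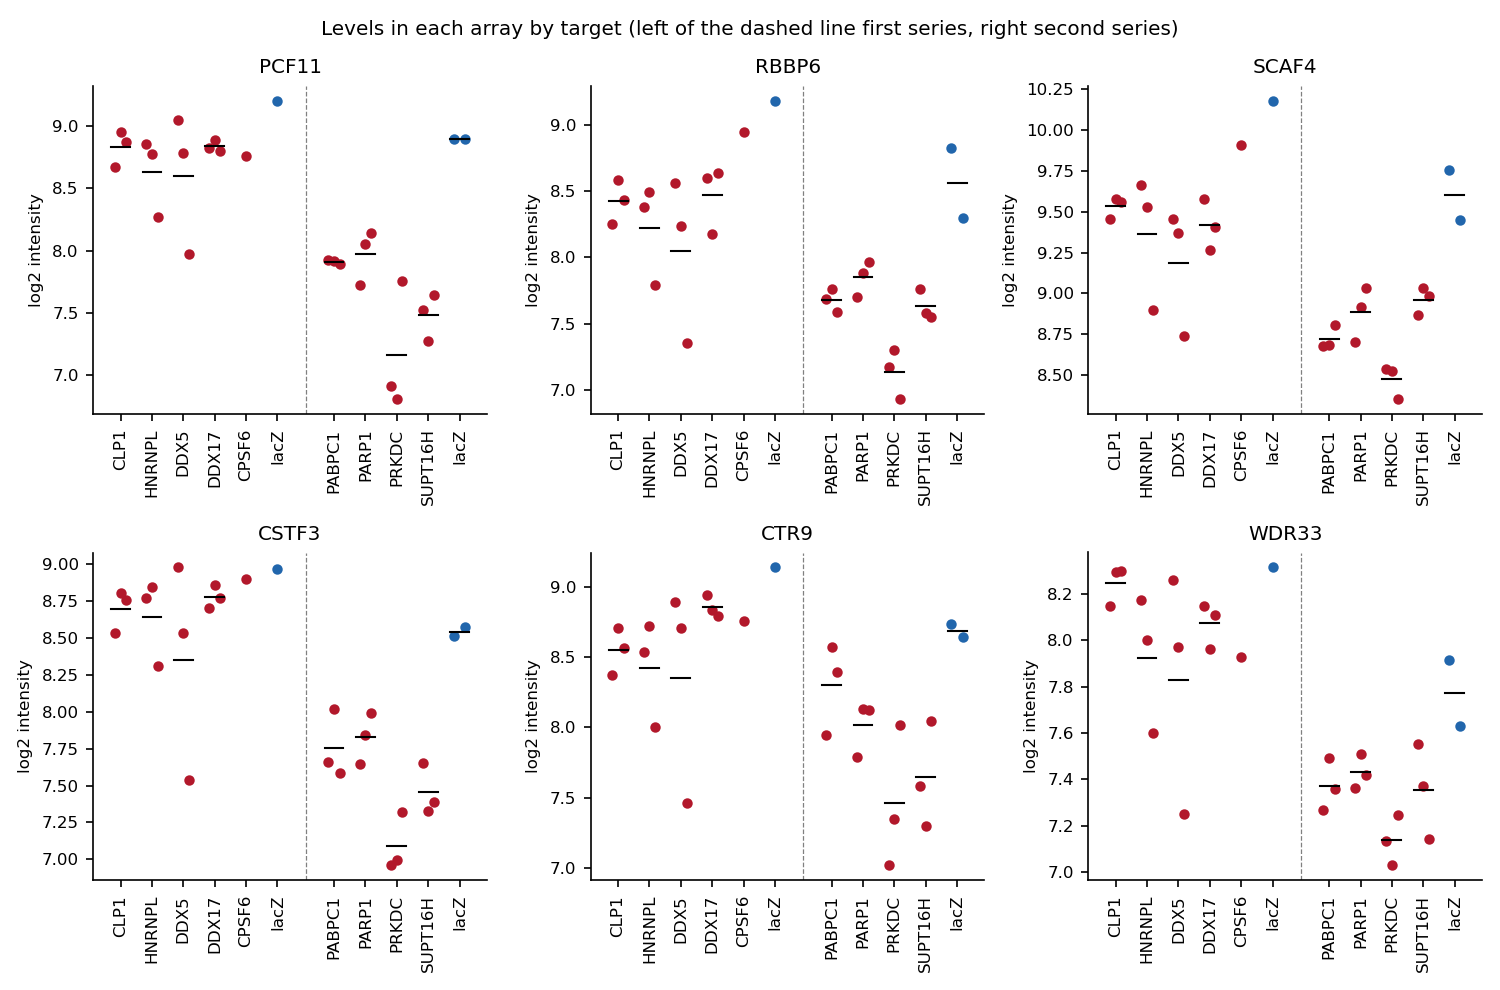
Level of 6 factors (log2 intensity, vertical axis) in each array by target (horizontal axis), with the knockdowns in red and lacZ in blue, the first series left of the dashed line and the second right of it; bars are means of groups with more than 1 array. In the second series every knockdown array of PCF11 (6.81 to 8.14) lies below both lacZ arrays (8.89 and 8.89).

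RBBP6 joins the complex and is needed for its cleavage activity. It had 7.17, 7.31 and 6.93 in the PRKDC arrays, 7.76, 7.58 and 7.55 in the SUPT16H arrays, 7.68, 7.77 and 7.59 in the PABPC1 arrays and 7.70, 7.88 and 7.97 in the PARP1 arrays, against 8.82 and 8.30 in the lacZ arrays. The groups did not overlap, although the lacZ arrays themselves were apart by more than the arrays of a knockdown. The difference was -1.42 ± 0.25 after PRKDC knockdown (adjusted p = 0.000738), -0.93 ± 0.25 after SUPT16H (0.0252) and -0.88 ± 0.25 after PABPC1 knockdown (0.0405), by limma. After PARP1 knockdown it was -0.71 and was not called. RBBP6 had the lowest difference of the 29 factors after CLP1 (-0.76), HNRNPL (-0.96) and DDX5 knockdown (-1.13) in the first series, where it was 7.36 to 8.64 in the 12 knockdown arrays against 9.18 in the lacZ array, with no call.

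SCAF4, which binds the polymerase tail and keeps it from ending at early poly(A) sites, was also below lacZ in every array. It had 8.54, 8.53 and 8.35 in the PRKDC arrays, 8.68, 8.69 and 8.80 in the PABPC1 arrays and 8.70, 8.91 and 9.03 in the PARP1 arrays, against 9.76 and 9.45 in the lacZ arrays. The difference was -1.13 ± 0.21 after PRKDC (adjusted p = 0.000983), -0.88 ± 0.21 after PABPC1 (0.014) and -0.72 ± 0.21 after PARP1 knockdown (0.0427), by limma. After SUPT16H knockdown the arrays had 8.87, 9.03 and 8.99 and the difference of -0.64 was not called. Its 12 knockdown arrays of the first series held 8.74 to 9.67, against 10.18 in the lacZ array. After DDX5 knockdown the difference was -0.99 with an adjusted p of 0.0822, the smallest of the 29 factors in that comparison. SCAF8, its paralog, had 7.89, 7.98 and 8.03 in the PRKDC arrays, against 8.93 and 8.58 in the lacZ arrays, and was called after that knockdown alone (-0.79 ± 0.21, adjusted p = 0.00926).

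Of the CstF subunits, CSTF3, the scaffold on which the others assemble, was the one that passed the test. It had 6.96, 6.99 and 7.32 in the PRKDC arrays and 7.65, 7.32 and 7.39 in the SUPT16H arrays, against 8.51 and 8.58 in the lacZ arrays. All 6 lay below both lacZ arrays. The difference was -1.45 ± 0.26 after PRKDC (adjusted p = 0.000797) and -1.09 ± 0.26 after SUPT16H knockdown (0.0123), by limma. After PABPC1 (7.58 to 8.02) and PARP1 knockdown (7.64 to 7.99) its differences of -0.79 and -0.72 were not called. CSTF1, which completes the complex, differed from lacZ by -0.40 to 0.22 over the 8 knockdowns. CSTF2, the subunit that binds the GU-rich element, differed by -0.16 to 0.34 and its autosomal paralog CSTF2T by -0.04 to 0.54, with no call. For CSTF2T the 3 hairpins of 5 knockdowns were all above lacZ, for which the share of all genes was not counted. In a single knockdown 19.2% to 38.7% of all genes were, which is no measure of a count over several. Transcripts of CSTF2 and CSTF2T, as those of the phosphatase genes PPP1CA and PPP1CB, are alike over parts of their length, and single probes were not used here, so a shared signal cannot be told apart.

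The subunits of CPSF went different ways. FIP1L1, which binds U-rich sequence and the poly(A) polymerase, had 7.33, 7.36 and 7.49 in the PRKDC arrays, against 8.30 and 8.17 in the lacZ arrays, and its difference was -0.84 ± 0.21 (adjusted p = 0.00746, limma). WDR33, which contacts the AAUAAA signal, had 7.13, 7.03 and 7.25 in the PRKDC arrays, against 7.91 and 7.63 in the lacZ arrays, with a difference of -0.64 ± 0.21 (adjusted p = 0.0255, limma). Both were called after PRKDC knockdown alone, and WDR33 was below lacZ in all 24 arrays of the 8 knockdowns. CPSF4, a zinc finger subunit that also contacts the signal, lay on the other side. Its hairpins were all above lacZ in 5 knockdowns, for which the share of all genes was not counted (19.2% to 38.7% in a single knockdown). For CPSF4 the lacZ arrays of the second series were uneven, at 7.11 (replicate 2) and 7.51 (replicate 3). PABPC1 hairpin 2 (7.31), PRKDC hairpin 3 (7.33) and SUPT16H hairpin 3 (7.45) lay below replicate 3. The difference of CPSF4 from the mean of lacZ was positive in all 8 knockdowns, 0.26 to 0.65, with no call. The largest of these was after CLP1 knockdown, at 8.22, 8.05 and 8.19 against 7.51 in the lacZ array, and the unadjusted p of 0.00704 became 0.232 after adjustment by limma. The endonuclease CPSF3 differed by -0.30 to 0.44, its partner CPSF2 by -0.35 to 0.66, the large subunit CPSF1 by -0.24 to 0.15 and the scaffold SYMPK by -0.13 to 0.31, none of them called.

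Cleavage factor I binds UGUA elements and favours distal sites; it is made of NUDT21 with CPSF6 or CPSF7. CPSF6 had 8.72, 8.85 and 8.93 in the PRKDC arrays, against 9.56 and 9.45 in the lacZ arrays, and the difference was -0.67 ± 0.19 (adjusted p = 0.0124, limma). Its differences in the other 7 knockdowns, -0.01 to -0.32, were not called. CPSF7 differed by -0.34 to 0.38 over the 8 knockdowns. NUDT21 took opposite sides in 2 knockdowns of the second series, with 10.03, 9.92 and 9.73 in the SUPT16H arrays and 9.29, 9.52 and 9.27 in the PRKDC arrays, against 9.72 and 9.56 in the lacZ arrays. These SUPT16H arrays were all above and the PRKDC arrays all below lacZ, but neither difference from lacZ (0.25 and -0.28) nor the difference between the 2 knockdowns was called.

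PAPOLA and PAPOLG, the nuclear poly(A) polymerases among the 29, were called after PRKDC knockdown alone. PAPOLA, the main nuclear enzyme, had 8.73, 8.81 and 9.17 in the PRKDC arrays, against 10.19 and 9.65 in the lacZ arrays, and differed by -1.02 ± 0.29 (adjusted p = 0.0118, limma). Its paralog PAPOLG had 7.00, 7.30 and 6.73 in the PRKDC arrays, against 8.27 and 7.81 in the lacZ arrays, and differed by -1.03 ± 0.31 (adjusted p = 0.0166, limma). No PRKDC array reached a lacZ array for either gene, but the lacZ arrays were uneven. PAPOLA also had 8.94, 8.85 and 9.54 in the SUPT16H arrays, all below lacZ, where the difference of -0.81 had an adjusted p of 0.0699.

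CTR9 is the scaffold of the PAF1 complex. It had 7.02, 7.35 and 8.02 in the PRKDC arrays and 7.58, 7.30 and 8.05 in the SUPT16H arrays, against 8.73 and 8.64 in the lacZ arrays. In both knockdowns hairpin 3 was the closest to lacZ and the groups did not overlap. The difference was -1.22 ± 0.32 after PRKDC (adjusted p = 0.00848) and -1.04 ± 0.32 after SUPT16H knockdown (0.0414), by limma. CDC73, which is known to bind CPSF and CstF, had 8.30, 8.35 and 8.25 in the PRKDC arrays, against 8.98 and 8.82 in the lacZ arrays, and differed by -0.60 ± 0.20 (adjusted p = 0.0243, limma). After quantile normalization over all arrays this difference was -0.24 and was no longer called (adjusted p = 0.128). PAF1 itself differed from lacZ by -0.40 to 0.21, LEO1 by -0.30 to 0.59 and RTF1, a looser member in human cells, by -0.54 to -0.02, with no call. RTF1 was below lacZ in all hairpins of 6 knockdowns, for which the share of all genes was not counted. The shares in a single knockdown, 18.1% to 31.9% of all genes, are no measure of such a count.

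The phosphatases and the exonuclease of termination passed no test. PPP1CA and PPP1CB, catalytic subunits of the phosphatase that dephosphorylates the polymerase and its elongation factors at the end of genes, differed from lacZ by -0.09 to 0.34 and -0.12 to 0.26. PPP1CA was uneven after PRKDC knockdown, at 8.09, 8.19 and 9.33, against 8.39 and 8.36 in the lacZ arrays. SSU72, a phosphatase of the polymerase tail, differed by -0.29 to 0.03. XRN2, the exonuclease that trails the polymerase after cleavage, differed by -0.43 to 0.50. After PRKDC knockdown it had 7.22, 7.51 and 7.67, against 7.99 and 7.80 in the lacZ arrays, and was not called.

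Position beside the lacZ arrays was counted over all hairpins, with no test. WDR33, PCF11, RBBP6, SCAF4 and CTR9 were below every lacZ array of their series in all 24 arrays of the 8 knockdowns, as were 4.69% of all genes. FIP1L1, CSTF3 and SCAF8 were below in all hairpins of 7 knockdowns, for which the share of all genes was not counted. No factor was above lacZ in all 24, as were 2.5% of all genes. After PRKDC knockdown 18 of 29 factors were below lacZ in all 3 arrays, where 27.5% of all genes were, and 0 were above, where 38.7% of all genes were. Counts below were 13 of 29 after SUPT16H (24.6% of all genes), 12 after PABPC1 (25.4%), 12 after PARP1 (21.9%), 13 after HNRNPL (31.1%), 12 after CLP1 (28.7%), 10 after DDX17 (31.9%) and 9 after DDX5 knockdown (18.1%). Counts above were 11 after DDX17 (32.6% of all genes), 10 after CLP1 (34%), 8 after HNRNPL (26.8%), 3 after DDX5 (19.2%), 3 after PABPC1 (30.5%), 2 after SUPT16H (32.5%) and 1 after PARP1 knockdown (27%). After DDX17 knockdown the counts in both directions were near the shares of all genes. After CLP1 and HNRNPL knockdown the counts above were near them, while the counts below lay higher. All these counts share the lacZ arrays of their series, and the lacZ array of the first series is also lacZ replicate 2 of the second. A low or high control array thus moves the counts of both series together. Levels below lacZ in all 24 arrays are therefore no independent repeat between the series.

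In the first series 0 of 29 factors were called by limma after CLP1 knockdown, where 0.956% of all genes were, and 4 had an unadjusted p under 0.05, where 9.2% of all genes did. The count was likewise 0 after HNRNPL (1.84% of all genes), DDX5 (0.842%) and DDX17 knockdown (2.77%), with 3, 5 and 5 factors at an unadjusted p under 0.05, where 13.2%, 11.4% and 14.7% of all genes were. CLP1, the partner of PCF11 in cleavage factor II, itself had a log2 difference of -0.57 from lacZ in its knockdown (adjusted p = 0.187). The CLP1 probeset was dim, with a mean of 5.94 at the 40.9th percentile of all genes. The study measured knockdown by PCR and kept the hairpins that lowered their target most. The single lacZ array leaves the comparisons of the first series wider, with a standard error of 0.33 for PCF11 where those of the second series have 0.26. Without DDX5 hairpin 3, SCAF4 and RBBP6 were called lower after HNRNPL knockdown (4.05% of all genes called) and SCAF4 after DDX17 knockdown (5.68%). Without DDX5 hairpin 1, both were called lower after DDX5 knockdown (3.4%), and without HNRNPL hairpin 3 SCAF4 was (0.912%).

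DDX5 hairpin 3 was the lowest of the 12 arrays of the 4 knockdowns for 23 of the 29 factors. In it 26 factors were below the lacZ array and their median difference was -0.77, where 46.9% of all genes were below it and their median was 0.05. DDX5 hairpins 1 and 2 had medians of 0.022 and -0.076. HNRNPL hairpin 3 had 21 factors below lacZ, where 50.3% of all genes were, and a median of -0.50, where that of all genes was -0.0022, against 0.013 and 0.0021 in HNRNPL hairpins 1 and 2. PAPOLG shows the gap, at 8.92, 8.12 and 7.14 in the DDX5 arrays and 8.51, 8.57 and 7.96 in the HNRNPL arrays, against 8.68 in the lacZ array. Whether a property of these arrays or of the hairpins goes with these levels was not tested.

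In the comparison with the other knockdowns of a series the lacZ arrays enter through the shared spread alone. Each knockdown was set against the mean of the other 3, and 0 of 29 factors were called by limma in all 8. All genes were called at 0.722% for CLP1, 0.0977% for HNRNPL, 0.038% for DDX5, 0.874% for DDX17, 0.0869% for PABPC1, 0.554% for PARP1, 0.0869% for PRKDC and 0.0109% for SUPT16H. PRKDC knockdown had 9 factors at an unadjusted p under 0.05, where 24.5% of all genes were, all 9 lower, led by PCF11 (-0.63 ± 0.19, adjusted p = 0.121), CSTF3 (-0.59 ± 0.19, 0.122) and RBBP6 (-0.58 ± 0.19, 0.122). Of the other 7, DDX17 (11.7% of all genes) and PABPC1 knockdown (10.3%) had 4 such factors. DDX5 (9.2%) and PARP1 knockdown (18.6%) had 3, CLP1 (17.3%) and HNRNPL knockdown (8.53%) 1 and SUPT16H knockdown (8.98%) 0. PABPC1 knockdown lay above the other 3 for CTR9 (0.60 ± 0.23, adjusted p = 0.327) and PAPOLA (0.58 ± 0.21, 0.274). Without DDX5 hairpin 3, an array of the other series that enters through the shared spread alone, 8 factors were called lower after PRKDC knockdown, where 14.1% of all genes were, and with each series fitted alone 10 were, where 17.6% of all genes were. Without DDX5 hairpin 1, 11 factors were called lower after DDX5 knockdown (17.2% of all genes called) and CPSF2 and XRN2 higher after DDX17 knockdown (3.03%).

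The 12 pairs of knockdowns within a series were also compared directly, a step added after the data were seen. No factor was called by limma in any pair. At an unadjusted p under 0.05 there were 10 of 29 factors in PABPC1 minus PRKDC (15.6% of all genes) and 7 in PARP1 minus PRKDC (31.3%). There were 5 each in DDX5 minus DDX17 (12%), PABPC1 minus SUPT16H (12.2%) and PRKDC minus SUPT16H (11.8%). CLP1 minus HNRNPL had 0 (15.1%), and the remaining pairs had 0 to 3, where 6.75% to 14.4% of all genes were. Of all genes 0.652% were called in CLP1 minus HNRNPL, 0.00543% in CLP1 minus DDX5, 1.78% in CLP1 minus DDX17, 0.152% in HNRNPL minus DDX5, 0.0597% in HNRNPL minus DDX17 and 0.494% in DDX5 minus DDX17. In the second series these shares were 0.0977% in PABPC1 minus PARP1, 0.0217% in PABPC1 minus PRKDC, 0.348% in PABPC1 minus SUPT16H, 2.88% in PARP1 minus PRKDC, 0.141% in PARP1 minus SUPT16H and 0.0109% in PRKDC minus SUPT16H. The smallest adjusted p was that of PCF11 in PARP1 minus PRKDC, 0.81 ± 0.23 (0.0528). So PCF11 was lower after PRKDC than after PARP1 knockdown by a difference that missed the threshold, and the calls above do not show that the knockdowns differ from each other.

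The CPSF6 hairpin has 1 array, so its values have no replicate check and no test. CPSF6 itself was at 8.65 in this array, against 10.01 in the lacZ array, a difference of -1.37, and at 9.24 to 10.10 in the 12 other knockdown arrays of the series. No other factor was more than 1 away from lacZ. CPSF4 (7.51) and CSTF2T (7.06) were below the range of the 12 other arrays, 7.71 to 8.22 and 7.29 to 7.70, but at the level of lacZ, 7.51 and 7.05. RBBP6 (8.95), SCAF4 (9.90) and SCAF8 (9.32) were above the range of those arrays, 7.36 to 8.64, 8.74 to 9.67 and 8.25 to 9.20, and nearer to lacZ at 9.18, 10.18 and 9.33. With CPSF6 that is 3 of 29 factors below and 3 above the range, where 7.81% of all genes were below and 10.1% above. NUDT21, the partner of CPSF6, was at 10.41, against 10.09 in the lacZ array, and CPSF7, which can take its place, at 8.20, against 7.96.

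**Figure D4:**
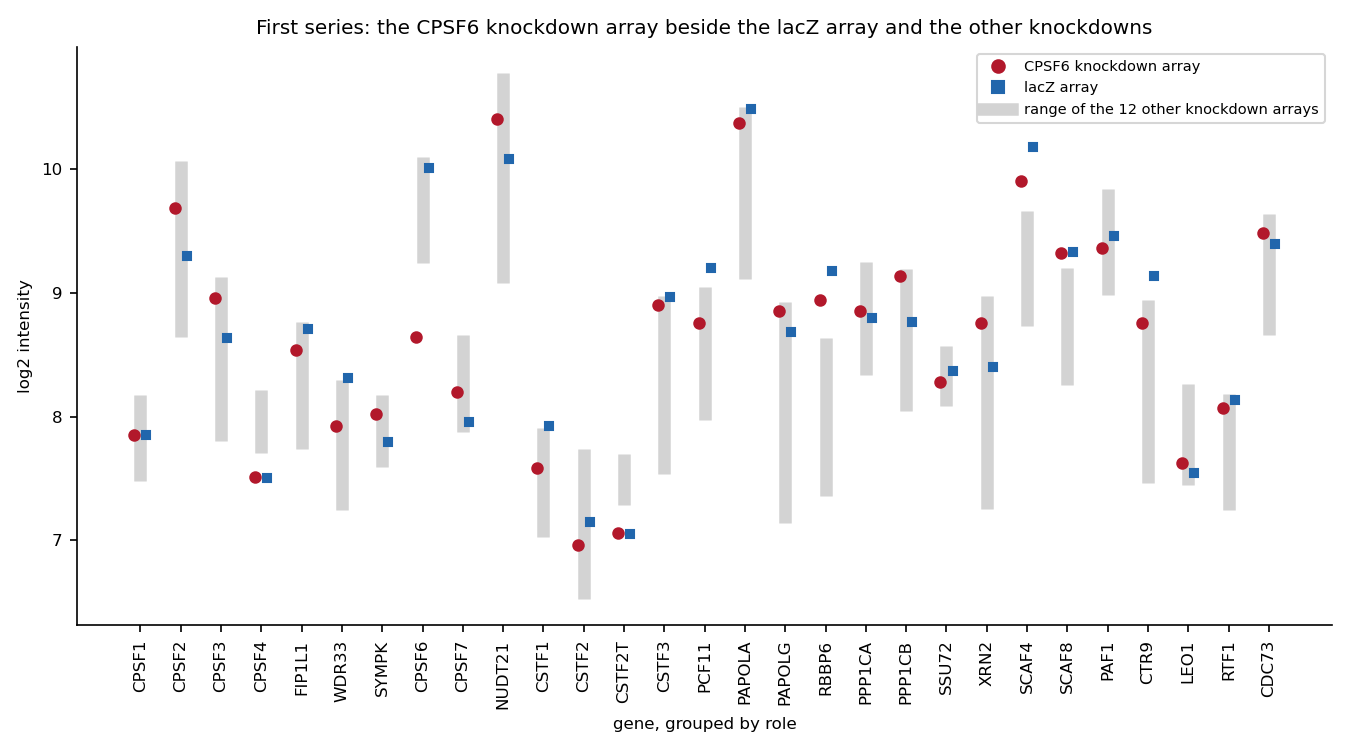
Level of each factor (log2 intensity, vertical axis; horizontal axis by role) in the CPSF6 knockdown array (circles) and the lacZ array (squares) of the first series, with the range of the 12 other knockdown arrays in grey. CPSF6 is at 8.65 in its knockdown array, below lacZ (10.01) and below the grey range, which starts at 9.24.

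Of 45 further genes of 3′ end formation, elongation and termination, 39 had a probeset of their own. After PRKDC knockdown 17 of these were called lower, where 16.1% of all genes were. The subunits NELFA and NELFB of the negative elongation factor were the 2 called higher, where 19.6% of all genes were. After PABPC1, PARP1 and SUPT16H knockdown 8, 7 and 8 were lower (4.02%, 2.98% and 5.76% of all genes) and 0 higher (1.73%, 2.46% and 3.77%). Fewer were called against lacZ in the first series, all of them lower. These were 1 after CLP1 (0.619% of all genes lower), 2 after DDX5 (0.668%), 3 after DDX17 (1.56%) and 3 after HNRNPL knockdown (1.13%). CLP1 and SUPT16H, which the list holds, were not counted in their own knockdowns. Against the other knockdowns 1 was called, SUPT16H after PARP1 knockdown, in a contrast whose other side holds the SUPT16H arrays.

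CASP8AP2, which serves the 3′ ends of histone transcripts, had 7.63, 7.98 and 7.71 in the PRKDC arrays, against 9.26 and 8.98 in the lacZ arrays. Its difference of -1.35 ± 0.19 (adjusted p = 7.95e-05, limma) was the one with the smallest p among the related genes, and it was lower in 6 of the 8 knockdowns. ZNF473, of the same pathway, was lower in 5. The largest polymerase subunit POLR2A was lower in 7 of 8, with a difference of -1.24 ± 0.23 after DDX5 knockdown (adjusted p = 0.00554), with 8.75, 8.71 and 8.62 in the DDX5 arrays, against 9.93 in the lacZ array. This rests on a lone lacZ array and on a spread shared with the second series, and its adjusted p was 0.0623 with each series fitted alone. In that fit the calls of all related genes in the first series were lost except PAPOLB after DDX17 knockdown, among them POLR2A after CLP1 (adjusted p = 0.145) and DDX17 knockdown (0.0511). PAPOLB itself was dim, with a mean level of 4.65 at the 15.9th percentile of all genes, under the filter at a mean of 6 used as an alternative. The calls of POLR2A after PABPC1 (0.126), PRKDC (0.0722) and SUPT16H knockdown (0.0628) were lost after quantile normalization over all arrays. So were those of SUPT5H in its 3 knockdowns and of TOX4 and ZFC3H1 after SUPT16H knockdown. Those of CASP8AP2 after DDX17 (adjusted p = 0.0497), ZNF473 after HNRNPL (0.0481) and ZFC3H1 after HNRNPL knockdown (0.0496) were at the threshold and were lost in 24, 26 and 25 of 36 alternatives. Of the kinases and factors of elongation, CDK13 was lower in all 4 knockdowns of the second series (-1.42 ± 0.23 after PRKDC, adjusted p = 0.000263), CCNT1, the cyclin of CDK9, in 3 and SUPT5H in 3. ZFC3H1, which leads early-terminated transcripts to decay, was lower in 6, with -1.52 ± 0.25 after PRKDC knockdown (adjusted p = 0.00036). TENT2, a cytoplasmic poly(A) polymerase, TOX4 and PPP1CC, partners in the phosphatase complex of termination, and the poly(A) polymerase PAPOLB were lower in 2 each, and the polymerase-tail binding protein RPRD2 in 1.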

How the data were processed

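Total RNA of HEK293 cells was amplified with random primers and hybridised to Human Gene ST1.0 arrays. The authors made probeset intensities from the scans by RMA in aroma.affymetrix (versions not given in the sources used here), which subtracts background, quantile normalizes and summarises probes, and deposited them as linear intensities of 4.25 to 18486, in 28 array columns, 2 of them of the same lacZ array, with the 2 series normalized apart. Single probes were not used here, nor any sequence or coordinate.

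Of 33252 probesets, those with exactly 1 symbol (19460) were kept, with the brightest on average standing for each of 18417 genes. Tests ran on log2 values, without a pseudocount or a filter. Groups and hairpin numbers came from the sample labels. The arrays were taken as a first and a second series, between which the shared lacZ array differed by a mean of 0.32 (log2, SD 0.07 over probesets). limma 3.58.1 under R 4.3.3 fitted 1 model of group means per series over 28 arrays, with variances moderated along intensity (residual degrees of freedom 17, prior 8), so that all groups share a spread and a lone lacZ array is taken to vary like the others. Tests were two-sided, and a gene was called at a Benjamini-Hochberg adjusted p under 0.05, adjusted over all 18417 genes. The scripts were tested on simulated data. Figures used Python 3.11.15 and matplotlib 3.10.9.

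All 29 factors are named; those called are given array by array, the others by ranges. Of the related genes, the 12 with the smallest adjusted p are named, and NELFA, NELFB and SUPT16H were added after their values were seen. The factors and the list of related genes, written from general knowledge, were chosen with earlier results of these data known. The number of arrays limits the precision. Alternatives were the series fitted alone, other normalizations, a pseudocount of 16, a filter at a mean of 6, the mean of all probesets, no trend, a block by hairpin number, pooled lacZ arrays and each array left out.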

Additional observations from a re-analysis of the deposited data

How the results depend on the processing

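The called differences of factors and related genes, SUPT16H in its own knockdown among them, kept their direction in every alternative run. Of their recomputed values 2440 stayed called and 322 did not. Many alternatives leave out 1 array outside the comparison, which cannot move the difference and alters the shared spread alone. These totals are therefore no measure of robustness. Of 21 calls against lacZ in the second series, 5 held in all 37 alternatives and 16 were lost without lacZ replicate 2. Beside each count the share of 116 factor values is given, then that of all genes in the same comparisons. The 21 calls (18.1%, all genes 14.1%) became 32 with each series fitted alone (27.6%, all genes 25.5%) and 44 without the 3 arrays that stand apart, chosen after seeing the data (37.9%, all genes 30.0%), and ranged from 5 without lacZ replicate 2 (4.31%, all genes 1.33%) to 31 without DDX5 hairpin 3 (26.7%, all genes 24.3%). PARP1 knockdown kept 0 of its 2 calls without either lacZ array or without any 1 of its own arrays, PABPC1 knockdown 1 of 3 without any 1 of its own arrays, and SUPT16H knockdown 1 of 4 without its hairpin 2. In the first series the count against lacZ of 0 became 4 after quantile normalization over all arrays (3.45%, all genes 1.6%), 8, 2 of them higher, with the lacZ arrays of both series as 1 group (6.9%, all genes 5.05%), 7, 1 of them higher, without the 3 arrays (6.03%, all genes 5.27%), and 0 to 3 with 1 array left out (at most 2.59%, all genes 3.13%). The lone lacZ array of the first series could not be left out of these comparisons, as no control then remains, so that range does not cover it. The array shared by the series was averaged into 1 before lacZ arrays were pooled. Against the other knockdowns the count of 0 in the first series was 0 to 13 with 1 array left out (at most 11.2%, all genes 7.51%). In the second it became 10 with each series fitted alone (8.62%, all genes 6.31%), 3 after quantile normalization (2.59%, all genes 0.983%), 17, 7 of them higher, without the 3 arrays (14.7%, all genes 8.16%), and 0 to 8 with 1 array left out (at most 6.9%, all genes 5.04%). The causes of these shifts were not tested, beyond that fewer arrays enter some fits. The difference of CPSF6 in its own array, -1.37, was -1.44 after quantile normalization and -1.35 after median centring.

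Hairpin numbers name different sequences for different targets, and same-numbered arrays of 2 knockdowns did not deviate together throughout (correlations of -0.575 to 0.833 over 12 pairs of knockdowns). All 3 lay over 0.1 in 1 of the 12 pairs, HNRNPL and DDX5 (0.232 to 0.833), whose hairpin 3 arrays both stand apart. The check was thus not met over the pairs, and the arrays were taken to share only a number. With the number as a replicate block, 1 factor was called against lacZ in the first series (0.862%, all genes 1.74%) and 24 in the second (20.7%, all genes 15%).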
